A study of Mus musculus with 8 samples.

Results

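Genes of 10 secreted proteins that bind matrix and cell surface receptors were followed in single cells of mouse parietal bone, namely Postn, Tnc, Tnn, Fn1, Thbs1, Thbs2, Thbs3, Thbs4, Spon1 and Tgfbi. They were chosen by gene symbol and make up 10 of the 31053 genes in the count matrices. The samples were 4 WT libraries (S1, S2, S5 and S6) and 4 Het G610C libraries (S3, S4, S7 and S8) of strain B6.129(FVB)-Col1a2tm1Mcbr/J at P4-5. Het animals carried 1 Col1a2 allele with the G610C substitution in the collagen I alpha2 chain, WT animals came from the same strain without it, and no group was treated. Each library held cells of several pups of 1 genotype, so a library is a pool and not an animal. Libraries S1 to S4 were made with version 3 and S5 to S8 with version 3.1 of the 10x Genomics 3′ kit, 2 of each genotype per version. The G610C substitution itself cannot be read from these UMI counts, so the genotype rests on the labels. The question was whether levels of these genes differ between Het and WT osteoblasts (OBs), across OB stages and from other cells of the same bone.

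Matricellular proteins are secreted into the matrix and act mainly as regulators of cell adhesion, growth factor activity and collagen fibril assembly, rather than as structural fibers. Periostin (Postn) is known for its high level in periosteum and in bone under load, tenascins for their presence in the osteogenic condensations, and fibronectin (Fn1) as the provisional scaffold on which collagen I is assembled. Thrombospondins bind CD47, CD36 and integrins, and Thbs1 is a known activator of latent TGF-beta. Tgfbi is a TGF-beta-induced relative of periostin with the same fasciclin repeats, Tnn (tenascin W) is a bone and tumor stroma tenascin, and Spon1 is the F-spondin gene.

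Postn, Tnn and Thbs2 had the most alike patterns among the 10 genes, so the bases just before their start sites are shown. In mm10 Postn lies at chr3:54361109-54391037, Tnn at chr1:160085029-160153580, Thbs2 at chr17:14665500-14694235 and Tnc at chr4:63959785-64047015, each spanning its exons and introns. RefSeq promoter entries matched 7 of the 10 symbols, with 9 start sites in all. The windows are the 250 bases upstream of the start, 5′ to 3′ on the gene's strand in GRCm38.p6, and capitals mark a TATAAA match on either strand. Postn lies on the plus strand, Tnn and Thbs2 on the minus strand.
Postn, chr3:54360857-54361106: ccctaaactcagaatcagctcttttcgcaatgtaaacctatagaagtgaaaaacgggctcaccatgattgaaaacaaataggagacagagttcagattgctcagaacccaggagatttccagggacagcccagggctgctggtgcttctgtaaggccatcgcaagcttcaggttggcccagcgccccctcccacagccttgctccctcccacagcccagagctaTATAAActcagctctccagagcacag
Tnn, chr1:160153576-160153825: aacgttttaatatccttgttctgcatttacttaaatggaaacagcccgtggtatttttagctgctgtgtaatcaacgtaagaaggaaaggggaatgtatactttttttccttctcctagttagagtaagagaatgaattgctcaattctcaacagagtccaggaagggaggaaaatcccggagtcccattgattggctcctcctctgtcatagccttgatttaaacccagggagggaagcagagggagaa
Thbs2, chr17:14694263-14694512: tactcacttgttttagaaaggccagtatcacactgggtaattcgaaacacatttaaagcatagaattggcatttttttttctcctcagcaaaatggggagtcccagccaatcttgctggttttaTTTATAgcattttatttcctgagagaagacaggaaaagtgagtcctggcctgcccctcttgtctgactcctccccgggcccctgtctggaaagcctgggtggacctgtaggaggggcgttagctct
The Postn match began 26 bases before the start, and a further Postn start site upstream of this one had none. The Thbs2 match was on the opposite strand 126 bases before the start, and the Tnn window held none. Tnc has overlapping windows for 2 start sites, and 1 match lay 126 bases before one and 205 before the other. TATAAA occurred in 12.4% of the 32851 mouse promoter windows of the same length, TGTGGT (a RUNX motif) in 14% and TGANTCA (an AP-1 motif) in 6.75%. No window of a member held a TGTGGT or TGANTCA match on either strand.

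Of 68625 barcodes, 46420 passed the filters of at least 500 genes and under 10% mitochondrial UMIs. OBs were cells with at least 10 Col1a1 UMIs and at least 2 UMIs in at least 2 of Runx2, Sp7 and Ibsp, which gave 2671 cells. They were split by Col1a1 into 379 early (eOBs, under 0.75% of UMIs), 1217 differentiating (dOBs) and 1075 mature OBs (mOBs, over 3.5%). Comparison cells were 15370 cells with Col2a1 over 1% of UMIs (Col2a1-high cells) and 28379 other cells. Levels are percent of all UMIs of a class in a library (%UMI), from 664702 to 4805858 UMIs for mOBs and from 204130 to 1296848 UMIs for eOBs. Since the stages are cut by Col1a1 share, a gene's %UMI in mOBs is diluted by collagen UMIs, and the fold changes below use edgeR with TMM scaling instead. Bglap, a defining gene of mature OBs, was at 0.286 to 1.66% of UMIs in version 3 mOBs and 0.0563 to 0.623% in version 3.1 mOBs. Over mOB sums, libraries correlated at 0.92 to 0.985 within a kit version and at 0.774 to 0.825 between versions.

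In mOBs the dominant split among these genes was kit version, not genotype. Postn was at 0.0365, 0.0330, 0.0432 and 0.0517% of UMIs in S1 to S4 and at 0.527, 0.591, 0.720 and 0.467% in S5 to S8. Every version 3.1 library lay above every version 3 library, by 14-fold between the means (0.0411 ± 0.0083% and 0.576 ± 0.108%, SD, 4 libraries each). Tnn, the tenascin of bone stroma, was at 0.00678, 0.0129, 0.0224 and 0.0285% in S1 to S4 and at 0.121, 0.117, 0.184 and 0.133% in S5 to S8. Thbs2, an antiangiogenic thrombospondin that binds MMP2, was at 0.0102 to 0.0163% and at 0.0651 to 0.117%. Tnc, the tenascin of condensing skeletal tissue, was at 0.0174 to 0.0279% and at 0.0767 to 0.131%. None of these 4 genes overlapped between kit versions, nor did Thbs3 or Tgfbi, while Fn1, Thbs1, Thbs4 and Spon1 did. The share of all genes without overlap was not counted. The kit version term given next was called for 57.7% of all genes tested.

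**Figure D1:**
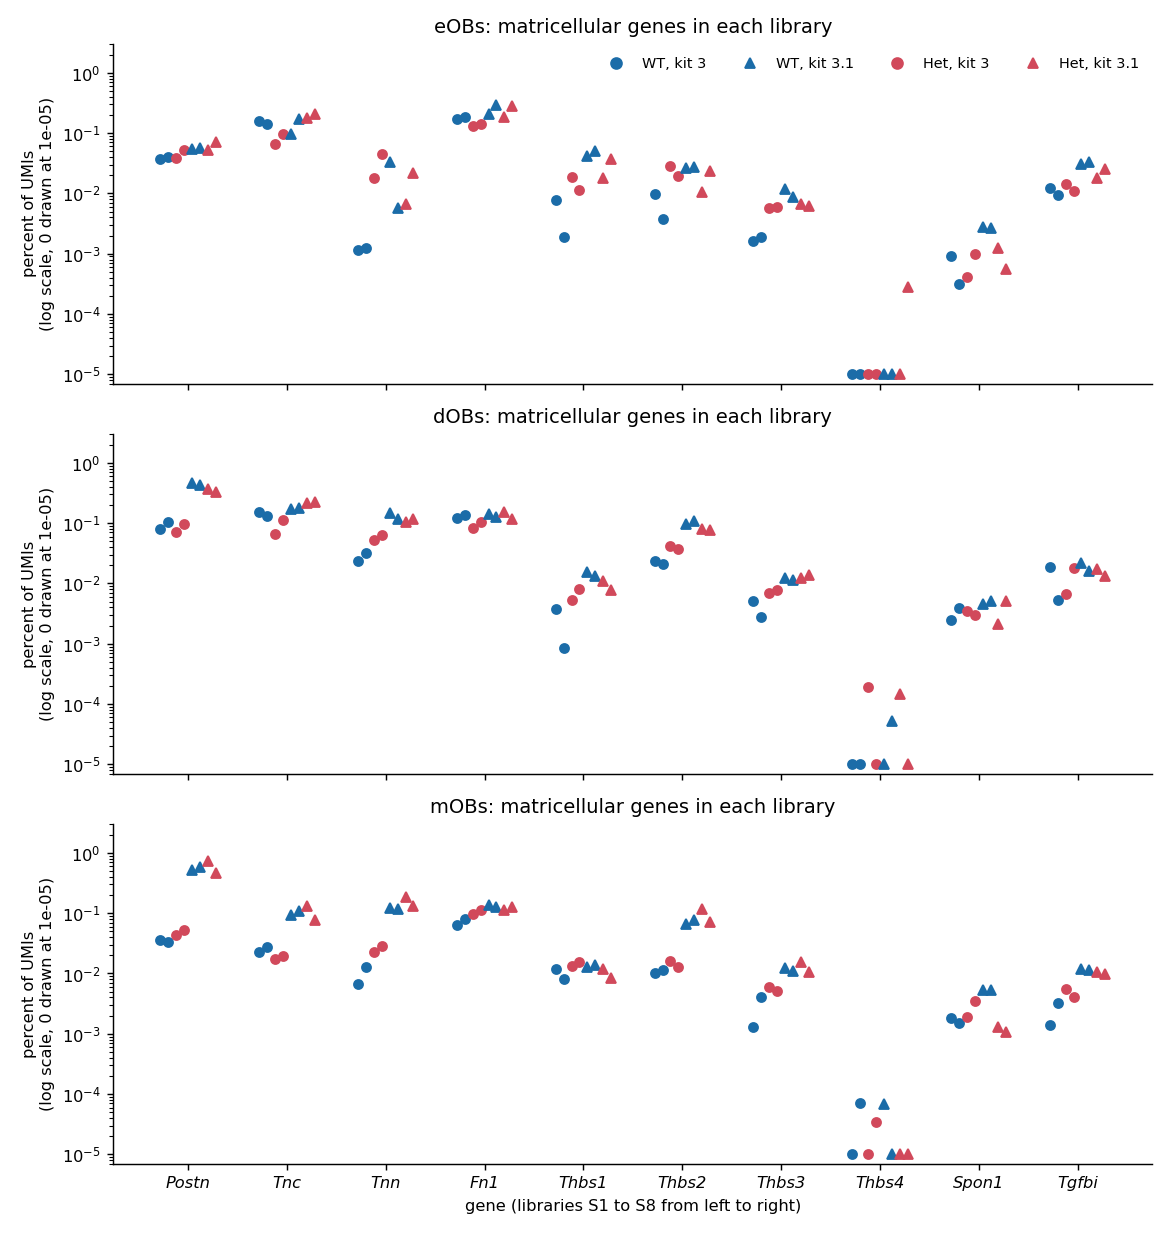
Percent of UMIs (log axis) of each gene in the 8 libraries, with eOBs, dOBs and mOBs in separate panels, WT in blue, Het in red, circles for kit version 3 and triangles for 3.1. In mOBs the 4 triangles of Postn sit between 0.467 and 0.720% while the circles sit between 0.0330 and 0.0517%.

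The kit version term of the mOB fit, added after the values were seen, was called at an edgeR adjusted p under 0.05 for 7 of the 9 genes tested, where 57.7% of all 10033 genes tested were called. Higher in version 3.1 were Postn (log2 difference 3.39 ± 0.16, SE, adjusted p = 1.4e-08), Tnn (2.67 ± 0.24), Thbs2 (2.28 ± 0.16), Tnc (1.81 ± 0.17), Tgfbi (1.27 ± 0.25) and Thbs3 (1.24 ± 0.25). Thbs1 was lower by a log2 difference of -0.46 ± 0.18 (adjusted p = 0.049). Fn1 at 0.09 ± 0.16 and Spon1 at 0.08 ± 0.42 were not called. The 6 higher genes were called in each of the 12 alternatives, among them without each library and without mixed OBs, with Postn between 3.27 and 4.23.
In eOBs the kit version term was called for 3 of 8 members, near the background of 40.8%. These were Thbs1 (1.74 ± 0.49), Thbs3 (1.23 ± 0.44) and Tgfbi (0.92 ± 0.22), all higher in version 3.1. The summed chondrocyte genes of the same eOBs were at 0.0134 to 0.273% in version 3 and 0.943 to 2.53% in version 3.1. Their part in these values was not tested. Postn was at 0.0367 to 0.0519% in S1 to S4 and at 0.0515 to 0.0702% in S5 to S8, which overlapped, and its kit version term was not called there (0.21 ± 0.17). In dOBs Postn was at 0.0714 to 0.105% and at 0.334 to 0.464% (log2 difference 1.92 ± 0.15, adjusted p = 1.3e-06). Tnn, Thbs2, Thbs3, Thbs1 and Tnc were also called there (6 of 9, background 51.3%).
Some other measures of the same cells were also split by kit version, and some were not. Of the OBs, 34.5% in version 3 and 87.8% in version 3.1 libraries held at least 3 markers of another cell class. A marker was counted at any UMI, so the term mixed OBs names this count and not a known mixture. The chondrocyte list includes Col11a2, at 0.000312 to 0.0286% in version 3 eOBs and higher in version 3 mOBs, as given below. Alpl was at 0.0252 to 0.0391% in version 3 and 0.0613 to 0.0775% in version 3.1 mOBs. The summed chondrocyte genes of mOBs overlapped, at 0.121 to 0.166% in version 3 and at 0.147, 0.156, 0.153 and 0.356% in S5 to S8. Of its genes, Sox9, Comp and Col11a2 overlapped, the last at 0.0749 to 0.163% in version 3 and 0.0341 to 0.0948% in version 3.1. Acan (0.00102 to 0.00733% and 0.0152 to 0.0329%), Col2a1 (0.000840 to 0.0332% and 0.0468 to 0.154%), Col9a1 (0.000360 to 0.00746% and 0.00920 to 0.0229%) and Matn1 (0 to 0.00473% and 0.00707 to 0.0122%) did not, and were higher in every version 3.1 library. The sum of the 7 fibroblast genes overlapped, at 0.00144 to 0.0113% and 0.00451 to 0.0102%, with Clec3b and Pi16 at or under 0.0017% throughout. Dpt (0.000360 to 0.00109% and 0.00219 to 0.00790%) and Gfpt2 (0.0000600 to 0.000266% and 0.000728 to 0.000903%) were higher in every version 3.1 library. The part of these genes in the difference between versions was not tested. Without the OBs that held markers of another class, Postn in mOBs was still at 0.0295 to 0.0591% in S1 to S4 and at 0.482 to 0.780% in S5 to S8, although only 4 to 41 cells then remained per version 3.1 library and S7 and S8, with under 10, were not in the fit. Kit version and the pups and run of each experiment cannot be told apart here.

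Between Het and WT mOBs none of the 10 genes was called, with kit version in the model. 9 were tested and 0 called at an edgeR adjusted p under 0.05, where 0.518% of 10033 genes were called, and 2 members and 1104 genes had an unadjusted p under 0.05. The median log2 fold change over the 9 members was 0.20, against 0.01 over all genes. DESeq2 on the same sums also called 0 members and 139 genes.
Tnn had the largest positive value. Its mOB levels were 0.00678 and 0.0129% in WT and 0.0224 and 0.0285% in Het libraries of version 3, and 0.121 and 0.117% in WT and 0.184 and 0.133% in Het libraries of version 3.1. Both Het libraries were above both WT libraries within each version, while the groups overlapped across versions. Other genes were split by genotype in the same mOBs. Genes of mature OBs outside the rule (Alpl, Bglap, Ifitm5, Dmp1 and Sost) summed to 1.62 and 1.82% in WT against 0.511 and 0.521% in Het of version 3, and to 0.624 and 0.754% against 0.200 and 0.439% in version 3.1. Mural genes were at 0.00348 and 0.00318% against 0.0131 and 0.00637%, and at 0.0149 and 0.0117% against 0.0232 and 0.0348%. Their part in the Tnn values was not tested. The fitted log2 fold change was 0.81 ± 0.23 (SE, adjusted p = 0.17). Within version 3 alone it was 1.32 ± 0.25 (adjusted p = 0.015, background 3.46%), which was lost without S1 (0.91, adjusted p = 0.13) and without S4. Leaving out a library leaves 1 of that genotype in its version, which is then assumed to vary like the other groups, here and for the other Het against WT values within a version. Within version 3.1 it was 0.36 ± 0.23 (adjusted p = 0.85), and the difference between versions (-0.97 ± 0.34) was not called (adjusted p = 0.32).
Spon1, the gene of a thrombospondin-repeat matrix protein, had the largest negative value in mOBs at -0.72 ± 0.43 (adjusted p = 0.59). Its levels were low, at 0.00180 and 0.00152% in WT and 0.00187 and 0.00347% in Het of version 3, and at 0.00533 and 0.00533% in WT and 0.00130 and 0.00105% in Het of version 3.1. The 2 Het levels of version 3.1 rest on 25 and 7 UMIs. So the 2 kit versions went opposite ways. Within version 3.1 Spon1 was lower in Het (log2 fold change -2.19 ± 0.28, adjusted p = 0.022, where 0.0287% of genes were called), and within version 3 it was at 0.70 ± 0.28 (adjusted p = 0.25). The difference between versions was -2.88 ± 0.40 (adjusted p = 0.026, background 0.0861%). With that assumption, the version 3.1 call was lost without S5, S6 or S7 and the difference without S1, S2, S4, S5 or S6.
For the remaining genes the Het and WT levels overlapped over both kit versions, whose own gap is wide. Within version 3, Tnn alone was called in mOBs, and Thbs3 was at 0.98 ± 0.35, Tgfbi at 0.98 ± 0.30, Fn1 at 0.47 ± 0.17 and Tnc at -0.51 ± 0.21. Postn was at 0.321% in Het and 0.297% in WT on average (log2 fold change 0.20 ± 0.15, adjusted p = 0.68). Fn1, which assembles the pericellular fibrils, was at 0.113 and 0.102% (0.15 ± 0.16). Tnc was at -0.25 ± 0.17 and Thbs2 at 0.35 ± 0.15 (adjusted p = 0.42). Thbs3, a pentameric thrombospondin of cartilage and bone, was at 0.44 ± 0.25, Thbs1 at 0.03 ± 0.18 and Tgfbi at 0.22 ± 0.25. Under a stricter OB rule of at least 3 UMIs per marker, Postn within version 3 was higher in Het by 1.45 ± 0.23 (adjusted p = 0.0048), while in version 3.1 it was at 0.03 ± 0.21.
Thbs4 was nearly absent. It had 16 UMIs in all OBs, 29 in Col2a1-high cells and 79 in other cells, 30 of them from the fibroblast-like cells of S3, and it was under the low-count filter of the Het against WT model in every class. It passed the filter of the model with genotype effects per kit version in other cells, and was not called there (3.33 ± 1.48 in version 3 and 1.64 ± 1.42 in version 3.1).

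**Figure D2:**
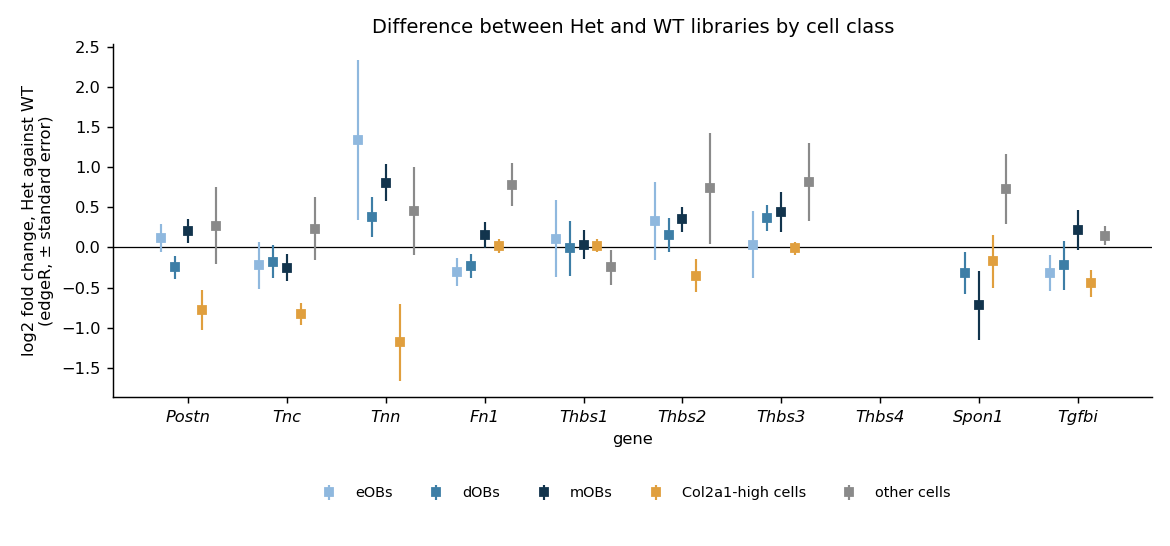
Log2 fold change of Het against WT with its standard error (edgeR, kit version in the model) for each gene in 5 cell classes, with points missing where a gene was too low to test. In mOBs Tnn (0.81) and Spon1 (-0.72) lie farthest from 0, and no point passed the adjusted threshold.

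No member was called between Het and WT in dOBs (9 tested, background 0.00981%, with 269 genes called without the low-count filter) or in eOBs (8 tested, 0 of 8732 genes called, 338 with an unadjusted p under 0.05). The largest dOB values were 0.38 ± 0.25 for Tnn and 0.37 ± 0.16 for Thbs3, and Postn was at -0.25 ± 0.14. In dOBs, too, both Het libraries of version 3 had more Tnn (0.0519 and 0.0646%) than both WT libraries (0.0236 and 0.0314%), and within that version the log2 fold change of 1.11 ± 0.21 was just called (adjusted p = 0.049, background 0.378%) and lost in 7 of 11 alternatives. In version 3.1 the order was mixed, at 0.106 and 0.118% in Het and 0.145 and 0.118% in WT. In eOBs of version 3, Tnn was at 0.00116 and 0.00125% in WT (15 and 4 UMIs) and at 0.0182 and 0.0451% in Het (44 and 92 UMIs). That difference was called within version 3 (4.69 ± 0.96, adjusted p = 0.038, background 1.11%). In the same eOBs the fibroblast genes summed to 0.00324 and 0.000312% in WT and to 0.0137 and 0.0108% in Het. The chondrocyte genes were at 0.114 and 0.0134% against 0.273 and 0.144%, and the genes of the OB rule at 0.514 and 0.491% against 0.651 and 0.736%. Their part in the Tnn values was not tested. In S4, 3 of the 23 eOBs held 80.4% of the summed cell shares of Tnn. In version 3.1 Tnn was at 0.0330 and 0.00580% in WT and at 0.00680 and 0.0217% in Het eOBs (-0.70 ± 0.68, not called). The difference of the Het effect between mOBs and eOBs, or between mOBs and dOBs, was called for 0 members and 0 of 11663 genes, with 615 and 354 genes at an unadjusted p under 0.05.
In Col2a1-high cells 0 of 9 members were called (background 0.103%, with 0.0342% of genes higher and 0.0685% lower in Het), although Tnc came close. It was at 0.0198, 0.0165, 0.0166 and 0.0118% in S1, S2, S5 and S6 (WT) and at 0.00853, 0.00777, 0.0102 and 0.00828% in S3, S4, S7 and S8 (Het). All 4 Het libraries were below all 4 WT libraries, with a log2 fold change of -0.83 ± 0.13 (adjusted p = 0.055). The haematopoietic genes of these cells were also lower in Het within each version, at 0.107 and 0.0938% in WT against 0.00869 and 0.00847% in Het of version 3, and at 0.0126 and 0.00643% against 0.00564 and 0.00334% in version 3.1. Their part in the Tnc values was not tested. Tnc was called with the replicate number as a block, and DESeq2 called 1 member in these cells. Within version 3 Tnc was called at -1.12 ± 0.18 (adjusted p = 0.044, background 0.219%), and within version 3.1 it was at -0.62. Postn was at -0.78 ± 0.25 and Tnn at -1.18 ± 0.48 there, both not called, and so were the 4 members with high levels in these cells, Tgfbi at -0.45 ± 0.16 (unadjusted p = 0.018, adjusted p = 0.63), Fn1 at 0.02 ± 0.08, Thbs1 at 0.02 ± 0.08 and Thbs3 at -0.01 ± 0.08.
In other cells 0 of 9 members were called (0 of 16374 genes, 3823 at an unadjusted p under 0.05, and 1631 genes with DESeq2). Within version 3, 8 of 10 were called, but so were 46.3% of all genes, and haematopoietic-like cells made up 2496 of 4429 and 2143 of 4473 other cells in S1 and S2, against 201 of 2477 and 648 of 6052 in S3 and S4. Their part in that result was not tested.

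Across OB stages, 8 of the 9 genes tested differed between mOBs and eOBs, where 35.8% of 11229 genes were called. 5 were higher in mOBs (17.7% of all genes were) and 3 lower (18.1%). Higher were Tnn (log2 fold change 2.66 ± 0.46, adjusted p = 0.00011), Postn (2.14 ± 0.40), Thbs2 (1.52 ± 0.30), Spon1 (1.34 ± 0.27) and Thbs3 (0.84 ± 0.19). Lower were Tgfbi (-1.01 ± 0.24), Tnc (-0.97 ± 0.22) and Fn1 (-0.41 ± 0.13, adjusted p = 0.018). Thbs1 was not called at -0.21 ± 0.33. In %UMI Tnc, Fn1 and Tgfbi were lower in mOBs than in eOBs in 8 of 8 libraries, and Spon1 higher in 8 of 8. Tnn was higher in 7 of 8, Thbs2 and Thbs3 in 6, and Postn in 5.
Between dOBs and eOBs 7 of 9 genes differed (background 15.4%, with 7.2% of genes higher and 8.15% lower), with Tnn at 2.76 ± 0.45, Postn at 1.87 ± 0.38, Thbs2 at 1.74 ± 0.29, Spon1 at 1.39 ± 0.27 and Thbs3 at 0.74 ± 0.19 higher in dOBs in 8 of 8 libraries. Thbs1 (-1.31 ± 0.32) and Fn1 (-0.57 ± 0.13) were lower in dOBs in all 8. Neither was called within version 3 (-0.93 ± 0.33 and -0.39 ± 0.18), where 4 members were called, all higher, and both were within version 3.1. Without OBs that held markers of another class, when S5 alone gave version 3.1 eOBs, Thbs1 was at 1.15 (adjusted p = 0.39) and Fn1 at -0.21 (adjusted p = 0.69). The summed chondrocyte genes were at 0.0134 to 0.273% of eOB UMIs in version 3 and at 0.943 to 2.53% in version 3.1, against 0.0173 to 0.107% and 0.219 to 0.574% in dOBs, and their part in these values was not tested. From dOBs to mOBs 3 of 9 were called (background 26.8%, with 13% of genes higher and 13.8% lower). Tnc fell (-1.22 ± 0.22), Tgfbi fell (-0.78 ± 0.23) and Thbs1 rose (1.11 ± 0.32). Tnc fell within each version, whereas Tgfbi was called within version 3 (-1.32 ± 0.32) and not within version 3.1 (-0.37 ± 0.26, adjusted p = 0.40). Thbs1 likewise was called within version 3 (1.97 ± 0.28) and not within version 3.1 (0.26 ± 0.23, adjusted p = 0.52), and the difference between versions (-1.70 ± 0.36, adjusted p = 0.032) was called in 5 of 12 alternatives.

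**Figure D3:**
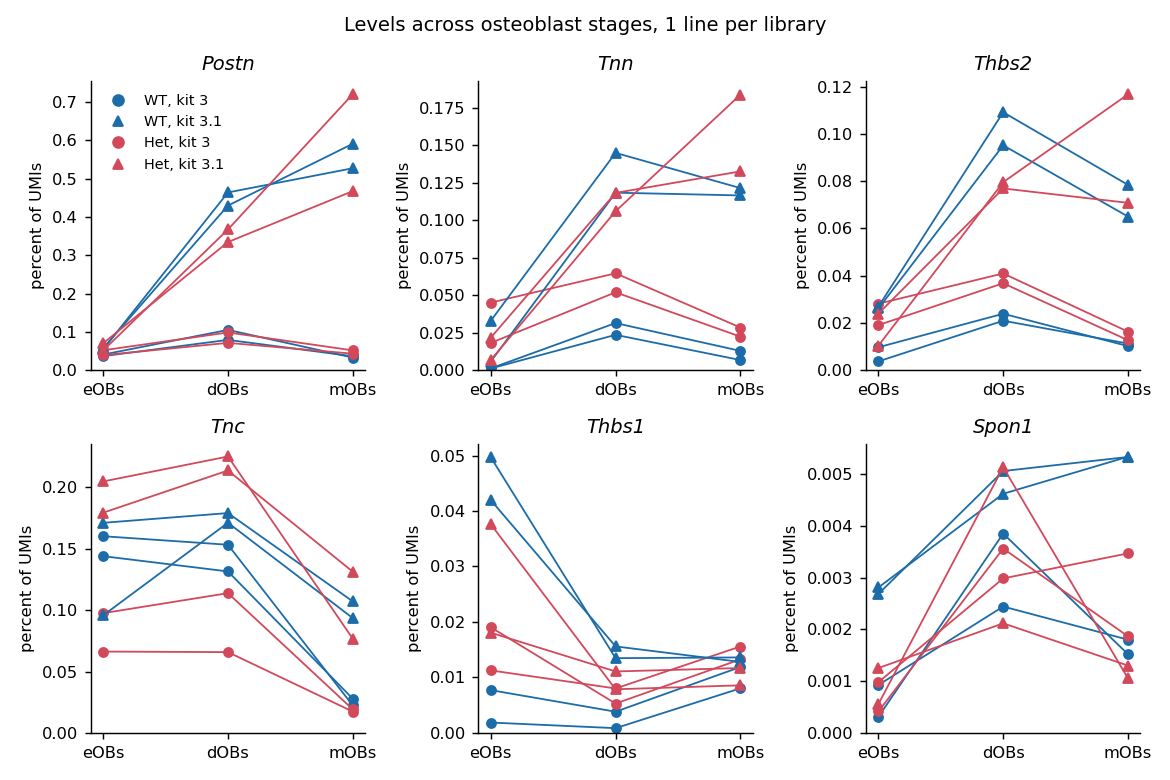
Percent of UMIs of 6 genes in eOBs, dOBs and mOBs, with a line for each library, WT in blue, Het in red, circles for kit version 3 and triangles for 3.1. Postn climbs to 0.467 to 0.720% in the mOBs of version 3.1 and returns to 0.0330 to 0.0517% in those of version 3.

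These stage courses were not the same in the 2 kit versions. Within version 3, Postn was at 0.0791, 0.105, 0.0714 and 0.0985% in dOBs and dropped to 0.0330 to 0.0517% in mOBs in all 4 libraries (log2 fold change -0.63 ± 0.14, adjusted p = 0.0029). Within version 3.1 it was at 0.464, 0.429, 0.367 and 0.334% in dOBs and was higher in mOBs in all 4 (0.83 ± 0.14, adjusted p = 0.00031). The difference between versions was 1.46 ± 0.20 (adjusted p = 0.0006), and 0.566% of all genes had a called difference of this kind. For mOBs against eOBs, Postn was at 0.56 ± 0.15 within version 3 and at 3.69 ± 0.16 within version 3.1 (difference 3.12 ± 0.21, adjusted p = 1.5e-08, background 5.51%). In %UMI the version 3 means were 0.0411% in mOBs and 0.0422% in eOBs. The version 3 call was lost without S3, and under the stricter OB rule the value was -0.56 (adjusted p = 0.33).
A further 4 members had a called difference between versions for mOBs against eOBs. Tnc fell within version 3 (-1.78 ± 0.16) and was at -0.25 ± 0.15 within version 3.1 (adjusted p = 0.26). Thbs2 was at 0.51 ± 0.30 (adjusted p = 0.24) and rose by 2.34 ± 0.27, and Tnn was at 1.31 ± 0.50 (adjusted p = 0.061) and rose by 3.64 ± 0.46. The Tnn difference between versions (2.33, adjusted p = 0.046) was lost in 6 of 12 alternatives. That of Thbs2 (1.83) was called in 10 of 12, and was lost without S3. Thbs1 rose by 1.04 ± 0.29 within version 3, a call lost without S1 and without S2, and fell within version 3.1 (-1.22 ± 0.23). Without OBs that held Col2a1 over 1% of UMIs, of which there were 6 in version 3 and 165 in version 3.1, the version 3.1 value of Thbs1 was 0.35 (adjusted p = 0.39). Fn1, Thbs3, Spon1 and Tgfbi had no called difference between versions, and Spon1 rose and Tgfbi fell within each.

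**Figure D4:**
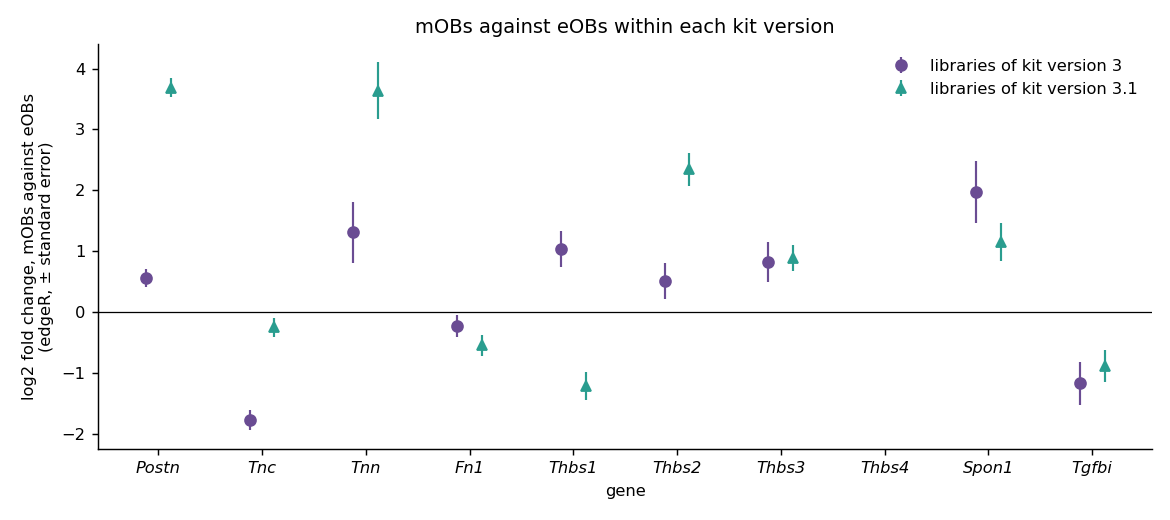
Log2 fold change of mOBs against eOBs with its standard error (edgeR) for each gene, fitted in version 3 (circles) and version 3.1 libraries (triangles), with Thbs4 too low to test. Postn lies at 0.56 and 3.69, Tnc at -1.78 and -0.25, and Thbs1 at 1.04 and -1.22.

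Compared with Col2a1-high cells, OBs differed in all 9 genes tested, where 57.2% of 13849 genes were called (28.4% higher and 28.8% lower in OBs), and in the same direction within each kit version. Higher in OBs were Tnn (log2 fold change 4.97 ± 0.27), Postn (3.52 ± 0.44), Spon1 (3.11 ± 0.19), Tnc (3.03 ± 0.25) and Thbs2 (2.10 ± 0.32). Lower in OBs were Thbs1 (-3.30 ± 0.16), Tgfbi (-2.51 ± 0.19), Thbs3 (-1.77 ± 0.18) and Fn1 (-1.44 ± 0.08). All of these differences had the same sign in 8 of 8 libraries. Thbs1 was at 0.111 ± 0.0082% of Col2a1-high UMIs (SD, n = 8), and its range of 0.0935 to 0.120% took in both kit versions. Fn1 was at 0.327 ± 0.032% there and at 0.126 ± 0.020% in OBs. In these cells the kit version term was called for 1 member of 9 (Thbs3, 0.47 ± 0.08), where 59.1% of all genes were called, and Postn, Tnn, Thbs2 and Tnc were not. The difference between versions of the OB against Col2a1-high contrast was itself called for 4 of 9 genes, where 11.4% of all genes were called, namely Postn (2.40 ± 0.29), Thbs2 (1.82 ± 0.25), Tnc (1.27 ± 0.26) and Tgfbi (0.89 ± 0.23).
Compared with all other cells, 7 of 10 genes were called (background 41.1%). Tnc (2.10 ± 0.28), Tnn (1.57 ± 0.22), Postn (1.46 ± 0.32), Spon1 (1.43 ± 0.29) and Thbs3 (0.48 ± 0.16) were higher in OBs, and Thbs1 (-1.10 ± 0.22) and Tgfbi (-0.37 ± 0.11) lower. Fn1 (0.17 ± 0.26), Thbs2 (0.33 ± 0.23) and Thbs4 (0.43 ± 0.50) were not called. The Thbs3 call was lost in 10 of 17 alternatives and the Tgfbi call in 4, and within each kit version 4 of the 10 were called (background 36.1% in version 3 and 27.4% in version 3.1), among them Tnc, Tnn and Thbs1 in both. Other cells are a mixture. In fibroblast-like cells the means of Thbs3 (0.0199 ± 0.0070%, SD, 7 libraries), Thbs2 (0.102 ± 0.084%), Tnn (0.0745 ± 0.0953%), Fn1 (0.191 ± 0.117%) and Spon1 (0.00396 ± 0.0055%) were above those of OBs (0.00821, 0.0481, 0.0687, 0.126 and 0.00299%). Spon1 was also at 0.00373 ± 0.0015% in mural-like cells (SD, 8 libraries). Within version 3.1 alone, Fn1 was lower in fibroblast-like cells (0.0889%) than in OBs (0.143%). Within version 3 alone, Spon1 was lower there (0.00103%) than in OBs (0.00229%). Thbs3 and Thbs2 were above OBs within each version. These differences were not tested, and the SD of Tnn and Spon1 in fibroblast-like cells was larger than the mean. Postn was at 0.144 ± 0.063% (SD, 7 libraries) in cells with 3 or more fibroblast markers (12, 5 and 3 cells in S5, S6 and S8, and none in S7). Within version 3 Postn was at 0.143% in these cells, above OBs (0.0540%) and dOBs (0.0885%). Within version 3.1 it was at 0.145% there and at 0.415% in OBs. Over 8 libraries it was at 0.0464 ± 0.0173% in mural-like, 0.00655 ± 0.0038% in endothelial-like and 0.00624 ± 0.0025% in haematopoietic-like cells. Haematopoietic cells should lack periostin, so their level is used as a background, whose source was not tested. Tgfbi was higher in haematopoietic-like cells (0.0303 ± 0.0159%) than its mean in any OB stage, and Thbs1 was at 0.0289 ± 0.0187% there.

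**Figure D5:**
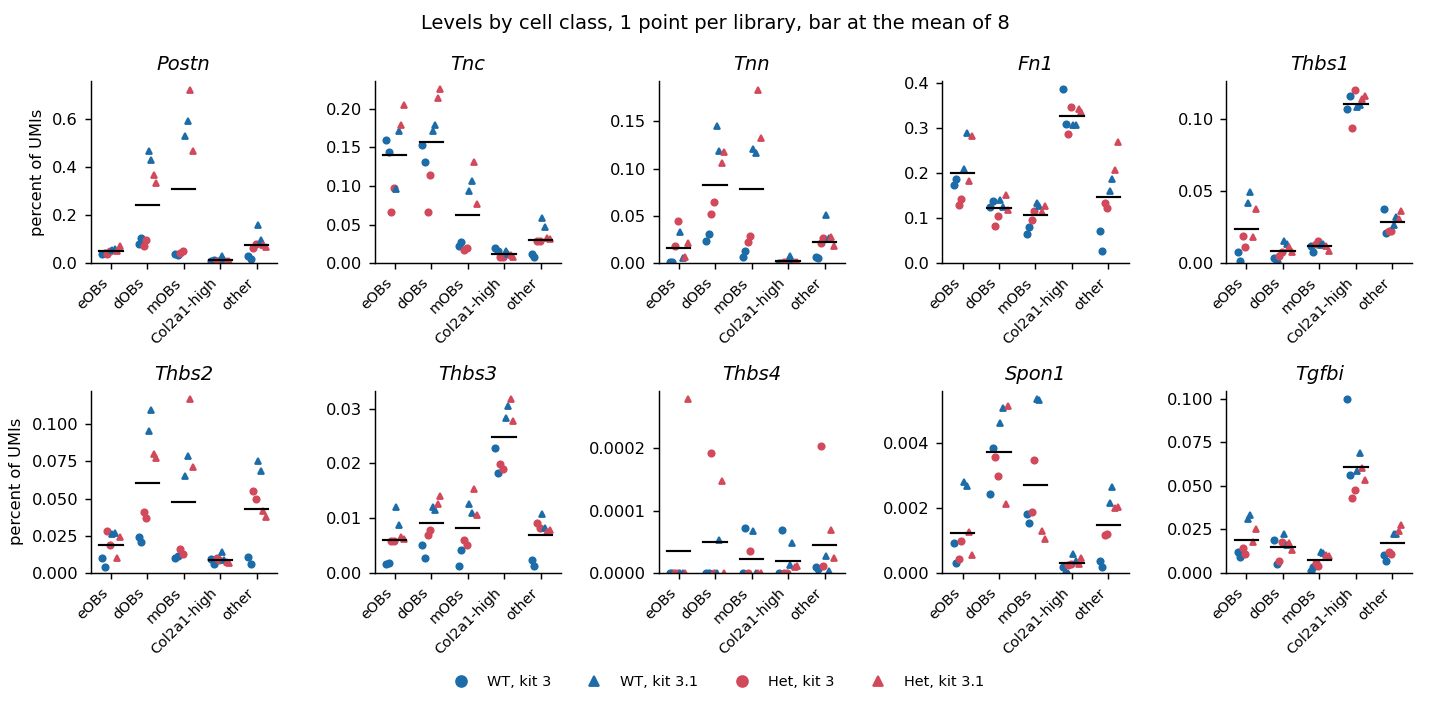
Percent of UMIs of each gene in 5 cell classes, 1 point per library and a bar at the mean of 8, on linear axes from 0 that differ between panels. Of the 5 classes plotted, in which mural-like and fibroblast-like cells are pooled with the other cells, Postn, Tnc, Tnn and Spon1 are highest in OB stages, whereas Fn1, Thbs1, Thbs3 and Tgfbi are highest in Col2a1-high cells.

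In the order of class means, neighbours were compared within each of the 8 libraries by exact flipping of signs (2-sided), with a smallest possible p of 0.0078 and adjustment over 36 pairs. The top neighbours of Postn (mOBs 0.309% and dOBs 0.244%, exact test adjusted p = 0.45), Tnn (dOBs 0.0824% and mOBs 0.0781%, adjusted p = 0.14) and Spon1 (dOBs 0.00372% and mOBs 0.00271%, adjusted p = 0.13) were not separated over the 8 libraries. For Postn the versions went opposite ways, since mOBs were below dOBs in 4 of 4 version 3 libraries and above them in 4 of 4 version 3.1 libraries, both called by edgeR as given with the stages. Tnc did not separate dOBs (0.157%) from eOBs (0.140%, exact test adjusted p = 0.21) but eOBs exceeded mOBs (0.0619%) in 8 of 8 libraries (exact test adjusted p = 0.023). Col2a1-high cells stood above the next class in all 8 libraries for Fn1, Thbs1, Thbs3 and Tgfbi (exact test adjusted p = 0.023 each).

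Among single cells, Postn was found in 58.2% of version 3 mOBs (32.5 to 75.9% per library) and in 89.4% of version 3.1 mOBs (73.8 to 96.2%). After thinning every cell to 2000 UMIs, which kept 421 of 421 and 644 of 654 mOBs, the shares were 28 and 72.5%. In haematopoietic-like cells they were 11.7 and 41.1% unthinned and 5.72 and 10.2% thinned. Thinned shares of mOBs were also higher in version 3.1 for Tnn (20.4 and 60.6%), Thbs2 (17.1 and 57.6%) and Tnc (28 and 68.5%), whose thinned shares in haematopoietic-like cells were 2.58 to 6.45%. For Fn1 they were 73.6 and 82.0%. Thbs1, at 16.2 and 15.7% thinned in mOBs, was found in more haematopoietic-like cells (47.2 and 23.1%), which may express it themselves, so that they give no background for this gene.
Postn was concentrated in few mOBs of the version 3 libraries. The highest 10% of mOBs held 94.8, 94.8, 57.6 and 69.1% of the summed cell shares of Postn in S1 to S4, and 35.1, 28.2, 28.8 and 43.6% in S5 to S8. The median mOB had no Postn UMI in S1 and S2, both WT, and 0.0153 and 0.0111% in S3 and S4, both Het. In version 3.1 the median was 0.332, 0.559, 0.602 and 0.0438%. Tnn was shared out in a similar way, at 92.1, 90.1, 55.9 and 60.5% and then 42.8, 38.2, 33.1 and 51.6%, whereas for Fn1 the highest 10% held 24.4 to 32.9% in all 8.
Over dOBs and mOBs of a library, the rank correlation across cells between Postn and Tnn was 0.56 to 0.66 in version 3 and 0.71 to 0.80 in version 3.1. Postn with Thbs2 gave 0.35 to 0.57 and 0.55 to 0.78, and Tnn with Thbs2 gave 0.45 to 0.56 and 0.60 to 0.74. Cells of a library share its depth and free RNA, so these are descriptions. Tnc ran against Col1a1 (-0.79 to -0.62 and -0.48 to -0.28), while Postn ran against Col1a1 in version 3 (-0.58 to -0.38) and not in version 3.1 (-0.02 to 0.27). Fn1 with Postn ranged from -0.23 to 0.39 over the 8 libraries.
Across the 40 class sums, each library centered on its own mean, Postn, Tnn and Thbs2 were also the closest members (Pearson r 0.91 for Postn with Tnn, 0.90 for Postn with Thbs2, 0.88 for Tnn with Thbs2). Of the 9235 genes compared, those most like Postn were Col3a1 (0.96), Anpep and Mmp23, those most like Tnn were Mmp23, Anpep and Lrrc15, and those most like Thbs2 were Aspn, Fndc1 and Postn itself. Tnc was nearest to Podnl1, Nav3 and Prtg. Fn1 was nearest to Sox9 (0.93), Senp6 and Gpc6, Tgfbi to Tubb2a, Plagl1 and Sox5, Thbs1 to Enho, Fry and Xylt1, Thbs3 to Fmod, Plod3 and Me1, and Spon1 to Nrp2, Cdv3 and Khdrbs3. The 8 libraries share classes with very different composition, so r describes class patterns here, and Thbs4 was too low for it.

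Related genes were taken from 4 lists. Of 14 other matricellular genes, 20 matrix glycoproteins, 18 receptors and 15 TGF-beta pathway genes tested in mOBs, 0 were called between Het and WT, and 0 in dOBs. The largest mOB values were 2.67 ± 0.76 for Comp, a cartilage thrombospondin (adjusted p = 0.17), 1.18 ± 0.34 for Eln, the elastin gene (adjusted p = 0.18), 0.40 ± 0.22 for Sdc1, a syndecan (adjusted p = 0.56), and 0.82 ± 0.19 for Tgfb2, a TGF-beta ligand (adjusted p = 0.080).
For mOBs against eOBs, 6 of 16 other matricellular genes were higher and 7 lower (all genes, 17.7 and 18.1%). Sparc, the collagen-binding osteonectin (2.86 ± 0.20), Wisp1 (2.62 ± 0.15) and Cthrc1 (1.72 ± 0.23) rose, and Sparcl1 (-4.16 ± 0.57), Wisp2 (-2.51 ± 0.36) and Comp (-2.46 ± 0.54) fell. Markers of other cells were also higher in version 3.1 eOBs than in mOBs. Endothelial genes summed to 0.0697, 0.0733, 0.146 and 0.00334% in the eOBs of S5 to S8 and to at most 0.0032% in the mOBs of all 8 libraries. Chondrocyte genes, Comp among them, were higher in eOBs there too, and the part of either in the falls given here was not tested. Of 23 glycoproteins 3 were higher and 8 lower, with Ltbp1 (1.04 ± 0.33) up and Matn4 (-2.83 ± 0.28), Fbn1, the main microfibril gene (-2.29 ± 0.31), and Nid2 (-1.92 ± 0.26) down. Of 22 receptors 6 were higher, among them the collagen-binding integrin subunits Itga10 (1.36 ± 0.24) and Itga11 (1.13 ± 0.20), and 10 lower, among them Itga1 (-3.93 ± 0.28), Itga6 (-3.65 ± 0.51), a laminin receptor subunit, and Itga9 (-1.98 ± 0.20), which binds tenascin C. In the TGF-beta list 4 of 15 were higher and 3 lower. Tgfb1 (1.81 ± 0.11) and Smad3 (0.85 ± 0.14) rose, and the inhibitor Smad7 (-0.77 ± 0.17) and the receptors Tgfbr3 (-0.71 ± 0.17) and Tgfbr2 (-0.58 ± 0.16) fell.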

How the data were processed

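Single-cell 3′ libraries of parietal bone were counted by the authors with Cell Ranger against mm10, and the deposited values are raw UMI counts per gene and barcode. From these, cells were filtered and classed as described in the report, and counts were summed per library and class, leaving out sums of under 10 cells. The sums were tested with edgeR 4.0.16 (quasi-likelihood, TMM, genes with low counts filtered), with kit version and genotype, or library and class, as terms. Called means a Benjamini-Hochberg adjusted p under 0.05 over all genes tested. Doublets were not removed with a caller. Cells are not replicates, and p-values measure the spread between library pools. Members and lists were chosen with earlier results of these data known. Kit version terms, within-version fits and their differences were added after the data were seen. Related genes named are the 3 with the largest changes per list and comparison, at 20 CPM or more. Alternatives included DESeq2 1.42.0, other scaling, filters, OB rules, a replicate block and leaving out each library. Scripts were tested on simulated data in R 4.3.3 and Python 3.11.15.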

Additional observations from a re-analysis of the deposited data

Results flagged for a closer look

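Among 99 groups of 4 libraries, 6 held a library far from the other 3, where chance gives about 1 in 20 if the 4 libraries are alike, while each of these groups held 2 libraries of each kit version. Tnn in WT eOBs was at 0.0330% of UMIs in S5 and at 0.00116 to 0.00580% in the other WT libraries. Fn1 in WT Col2a1-high cells was at 0.385% in S1 and at 0.305 to 0.309% in the others. Spon1 in Het Col2a1-high cells was at 0.000449% in S8 and at 0.000257 to 0.000274% in the others. The other 3 were Thbs4, from 1 to 3 UMIs against 0, at 0.000279% in Het eOBs of S8, 5.28e-05% in WT dOBs of S6 and 3.50e-05% in Het mOBs of S4.

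A further 21 contrasts differed between kit versions by the edgeR test of the difference (version 3.1 minus 3, log2). In each comparison 9 or 10 members were tested, and the share of all genes called is given as background. For mOBs against eOBs (background 5.51%) these were Postn at 3.12, Tnn at 2.33, Thbs2 at 1.83, Tnc at 1.53 and Thbs1 at -2.25. For dOBs against eOBs (background 1.34%) it was Postn at 1.66. For mOBs against dOBs (background 0.566%) they were Postn at 1.46, Tnc at 1.25 and Thbs1 at -1.70. For OBs against Col2a1-high cells (background 11.4%) they were Postn at 2.40, Thbs2 at 1.82, Tnc at 1.27 and Tgfbi at 0.89. Between Het and WT the differences were -2.88 for Spon1 in mOBs (background 0.0861%) and -2.55 for Thbs3 in eOBs (background 0.567%). In other cells, where 20.6% of 16923 genes were called for this difference, they were -2.21 for Postn, -1.96 for Tnc, -2.50 for Tnn, -3.25 for Thbs2, -2.31 for Thbs3 and -2.09 for Spon1.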

How the results depend on the processing

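Counts of members called between Het and WT rose from 0 under some settings. In mOBs 2 were called with no low-count filter (536 genes in all) and 2 without OBs holding markers of another class. Within each kit version 1 was called (background 3.46% in version 3 and 0.0287% in version 3.1). Without mixed OBs, S7 and S8 fell under 10 cells in each stage, so these Het against WT fits held no version 3.1 Het library, and of the version 3.1 eOBs only those of S5 remained. In dOBs 1 was called within version 3 (background 0.378%). In eOBs 1 was called with no filter (141 genes in all), 3 of the 6 tested without mixed OBs and 1 within version 3 (background 1.11%). The share of all genes called is not given for the Het against WT fits without mixed OBs or without each library. In Col2a1-high cells 1 was called with DESeq2 (61 genes in all), 1 within version 3 (background 0.219%), and 0 to 1 without each library. In other cells 8 were called within version 3 (background 46.3%). For mOBs against eOBs 5 were called within version 3 (background 23.4%), and for mOBs against dOBs 5 (21.7%). For dOBs against eOBs 4 were called within version 3 (2.55%) and 4 without mixed OBs (197 genes in all). For OBs against other cells 4 were called within each version (36.1% in version 3 and 27.4% in version 3.1). For genotype by stage (mOBs against eOBs) 1 was called with no filter (116 genes in all). The cause was not tested. Counts over all genes moved too: with no filter 536 were called in mOBs (52 in the analysis reported), 269 in dOBs (1), 141 in eOBs (0) and 116 and 38 for genotype by stage against eOBs and dOBs (0 each), with DESeq2 1631 in other cells (0) and 61 in Col2a1-high cells (15), without kit version 0 in mOBs (52), and without mixed OBs 197 for dOBs against eOBs (1724).

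Signs turned for values that were mostly not called. Thbs1 between Het and WT in mOBs ranged from -0.15 to 0.15 without each library, and was -0.048 under the stricter rule and -0.13 without mixed OBs. In dOBs Thbs1 ranged from -0.22 to 0.35, and was 0.28 under the looser rule, 0.17 with other Col1a1 limits and 1.43 without mixed OBs. Tgfbi ranged from -0.043 to 0.40 in mOBs and from -0.50 to 0.0013 in dOBs. In dOBs Spon1 ranged from -0.58 to 0.10, Tnc from -0.29 to 0.046 and Thbs2 from -0.0014 to 0.33, with -0.072 for Thbs2 without kit version. Without mixed OBs, and so without S7 and S8, where Het Spon1 was low, Spon1 in mOBs was 0.80, and Thbs1 for dOBs against eOBs was 1.15. For mOBs against eOBs, Postn within version 3 was -0.56 under the stricter rule, and Thbs1 within version 3.1 was 0.35 without Col2a1-high OBs and 2.36 without mixed OBs, the latter from 1 eOB library with 2 Thbs1 UMIs.

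With the replicate number as a block, 1 member (Tnc) was called between Het and WT in Col2a1-high cells, and Thbs1 in dOBs was 0.023. Deviations of same-numbered WT and Het libraries correlated over genes at -0.122 to 0.149. The labels give only a shared number, and these correlations cannot tell whether such libraries share more.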
